A study of Rattus norvegicus with 6 samples.

Results

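Severe acute pancreatitis (SAP) injures the small intestine as well as the pancreas, and this account follows 6 membrane carriers of organic anions and short monocarboxylates in single nuclei of the rat ileum: Slco2b1, Slc5a8, UST4r, Slc16a1, Abcg2 and Abcc2. They are 6 of the 28282 gene symbols in the count tables. Slco2b1, Slc5a8 and UST4r were chosen by their summed counts over all nuclei, which were lower in each SAP rat than in any control (CON) rat, so their difference between the groups is described here and was not tested. Slc16a1, Abcg2 and Abcc2 were added as carriers of the same kinds of substrate, and their difference was tested.

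The carriers work at different faces of the epithelium. Slco2b1 (OATP2B1) is an organic anion transporting polypeptide that takes up sulfated steroids, statins and other anions without hydrolysing ATP. Slc5a8 (SMCT1) couples sodium to the uptake of butyrate, propionate, lactate and nicotinate and is known from the apical membrane of the distal gut. UST4r is a rat member of the SLC22 family, whose organic anion transporters carry amphiphilic anions, and its own substrates are less well known. Slc16a1 (MCT1) moves lactate, pyruvate and short-chain fatty acids together with a proton and needs the chaperone basigin to reach the membrane. Abcg2 (BCRP) and Abcc2 (MRP2) are ATP-driven apical pumps that return conjugates, drugs and toxins to the lumen; Abcg2 also exports urate. Short-chain fatty acids come from bacterial fermentation and feed the epithelium of the lower gut.

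All 6 animals were male wild-type Sprague-Dawley rats aged 6 weeks. The 3 SAP rats received 3% sodium taurocholate, at 0.1 mL per 100 g, infused backwards into the pancreatic duct, while the 3 CON rats had a laparotomy with no infusion; all were anesthetized with pentobarbital, and all were fasted after surgery. The ileum was taken 24 h later, and 1 library of nuclei was made per rat. The labels set no library apart by batch, although the deposited libraries differ in depth as given below. Nuclei were measured rather than whole cells, so RNA in the cytoplasm was largely not sampled.

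Of 90461 barcodes, 40970 passed the filter of at least 1200 UMIs (unique molecular identifiers, 1 per captured RNA molecule), at least 500 genes and at most 5% mitochondrial UMIs, with 6260 to 9246 nuclei per CON rat and 3189 to 7893 per SAP rat. Deposited barcodes reached down to 545 UMIs in CON replicate 2 and 502 in SAP replicate 1, against 1000 in the other libraries. In these libraries 26.2% and 12.2% of barcodes passed, against 76.4% to 79.9% in the others. The passing nuclei held 11402966 to 28771508 UMIs per CON library and 5549260 to 19435288 per SAP library. The median mitochondrial share was 0.125% to 0.700% in CON and 0.387% to 1.84% in SAP. The sum of the 7 Paneth markers was 91028 CPM in CON replicate 1 and 54284 CPM in SAP replicate 1, against 4270 to 7110 CPM in the other 4 libraries, and values without both of these libraries are given below. Barcode names are serial numbers, 701 to 7479 of them recurring in any pair of libraries and 6 in all, so they do not identify shared nuclei. CPM stands for UMIs of a gene per 1000000 UMIs of all genes in the same nuclei of the same library. The UMIs behind the values ranged from 32 to 265 per library for Abcc2, from 41 to 824 for UST4r and from 102 to 4876 for the other 4 carriers, so that Abcc2 and UST4r carry the widest counting error.

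The sequences around the start sites are shown for 4 carriers: the 3 chosen genes, because they were lower in every SAP rat, and Abcg2, because it had the widest range of levels between cell classes. The 300 bases run from 250 before to 50 after the annotated start in RefSeq's annotation of GRCr8, written 5′ to 3′ on the gene's strand, while the count tables were made on mRatBN7.2. Capitals mark matches, on either strand, to the letters searched: GTTAAT (HNF1), CAAAGTCCA (HNF4), TTTATGG (CDX), TTTATTG (a second CDX form), TGACGTCA (CREB), CACGTG (E-box), GCGTG (the core that the aryl hydrocarbon receptor binds), TGACNNNGC (the antioxidant element), GGGCGG (SP1) and TATAAA (TBP). Slco2b1 lies at chr1:163408016-163408315 on the minus strand, Slc5a8 at chr7:25160030-25160329 on the plus strand, UST4r at chr1:214571783-214572082 on the minus strand and Abcg2 at chr4:89075224-89075523 on the plus strand.
Slco2b1: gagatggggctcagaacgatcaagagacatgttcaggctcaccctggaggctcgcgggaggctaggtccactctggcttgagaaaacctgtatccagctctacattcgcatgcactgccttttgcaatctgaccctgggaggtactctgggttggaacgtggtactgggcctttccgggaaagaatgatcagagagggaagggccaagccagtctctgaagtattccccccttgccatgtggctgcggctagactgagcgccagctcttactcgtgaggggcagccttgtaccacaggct
Slc5a8: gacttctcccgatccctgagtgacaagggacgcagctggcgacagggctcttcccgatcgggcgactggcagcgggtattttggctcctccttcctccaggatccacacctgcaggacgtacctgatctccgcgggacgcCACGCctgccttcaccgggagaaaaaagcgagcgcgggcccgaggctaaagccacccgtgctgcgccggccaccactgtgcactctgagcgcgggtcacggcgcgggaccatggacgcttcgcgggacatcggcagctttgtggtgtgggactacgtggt
UST4r: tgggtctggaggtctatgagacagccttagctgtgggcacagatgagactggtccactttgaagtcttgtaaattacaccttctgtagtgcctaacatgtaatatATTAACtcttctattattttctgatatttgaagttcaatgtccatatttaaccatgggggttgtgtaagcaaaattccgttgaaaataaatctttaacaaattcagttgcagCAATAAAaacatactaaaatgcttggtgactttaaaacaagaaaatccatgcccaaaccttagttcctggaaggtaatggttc
Abcg2: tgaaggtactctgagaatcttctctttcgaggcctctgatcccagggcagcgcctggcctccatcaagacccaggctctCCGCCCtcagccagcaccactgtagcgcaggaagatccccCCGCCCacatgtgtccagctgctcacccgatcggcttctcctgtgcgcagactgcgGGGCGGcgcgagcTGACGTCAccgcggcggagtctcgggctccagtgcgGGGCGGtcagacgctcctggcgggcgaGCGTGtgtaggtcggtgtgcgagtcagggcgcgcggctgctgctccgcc

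The G and C content was 56.7% for Slco2b1, 65.7% for Slc5a8 and 36.3% for UST4r, with a median of 51.7% over 33469 promoters of the same length. The UST4r window held an HNF1 match at base -145, as did 7.45% of all promoters, and a TTTATTG match at base -33, as did 4.57%. That of Slc5a8 held a GCGTG match at -110, found in 29.7% of promoters, and that of Slco2b1 held none of the 10 motifs. The Abcg2 window held 4 GGGCGG matches, a motif present in 33.1% of promoters, a TGACGTCA match at -62, present in 1.83%, and a GCGTG match at base 1. A match describes the letters and was not tested as a binding site. Slc16a1 and Abcc2 had G and C contents of 72.7% and 44.7%.

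Over all nuclei, the level of the 3 chosen uptake carriers in SAP was 28.5% to 32.6% of that in CON. Slco2b1 stood at 91.4, 122.5 and 141.3 CPM in CON replicates 1, 2 and 3 and at 28.3, 27.3 and 60.1 CPM in the SAP rats. Slc5a8 was at 93.5, 124.9 and 74.2 CPM in CON and at 18.4, 28.9 and 36.1 CPM in SAP. UST4r was at 28.6, 39.6 and 36.3 CPM in CON and at 7.39, 6.39 and 17.3 CPM in SAP. In each case the highest SAP rat was replicate 3, and it lay below the lowest CON rat, as the choice of these genes required. Their log2 fold changes in the fit over all genes (edgeR, SAP over CON) were -1.68 (SE 0.24) for Slco2b1, -1.89 (SE 0.33) for Slc5a8 and -1.84 (SE 0.33) for UST4r. Such a lack of overlap, with SAP lower, was seen for 4.84% of the 19187 genes tested. Leaving out 1 library at a time gave SAP levels, whose direction the choice fixes, of 23.5% to 37.3% of CON for Slco2b1, 24.2% to 33.3% for Slc5a8 and 19.8% to 35.5% for UST4r.

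The 3 carriers added to them did not share that pattern. Slc16a1 was at 53.3, 61.7 and 47.2 CPM in CON and at 59.5, 51.6 and 66.8 CPM in SAP, so the groups overlapped almost wholly, and its log2 fold change was 0.09 (SE 0.28, adjusted p = 0.960 in edgeR's quasi-likelihood test). Abcg2 was at 111.1, 77.9 and 183.2 CPM in CON and at 169.2, 314.8 and 117.6 CPM in SAP. The Abcg2 fold change of 0.79 on the log2 scale (SE 0.48, adjusted p = 0.712) leaned on SAP replicate 2, and without that library it was 0.23. Abcc2, the scarcest of the 6, was at 4.38, 2.81 and 8.71 CPM in CON and at 6.67, 17.1 and 10.5 CPM in SAP, with a log2 fold change of 1.17 (SE 0.51, adjusted p = 0.592), which was 0.62 without SAP replicate 2. Neither of the efflux pumps passed the test, and their CON and SAP rats overlapped. No gene of the 19187 was called at an adjusted p under 0.05 and a log2 fold change of 0.5 or more in size (0% called), although 1618 had an unadjusted p under 0.05 and DESeq2 called 199 of 16920 genes (1.18%).

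**Figure D1:**
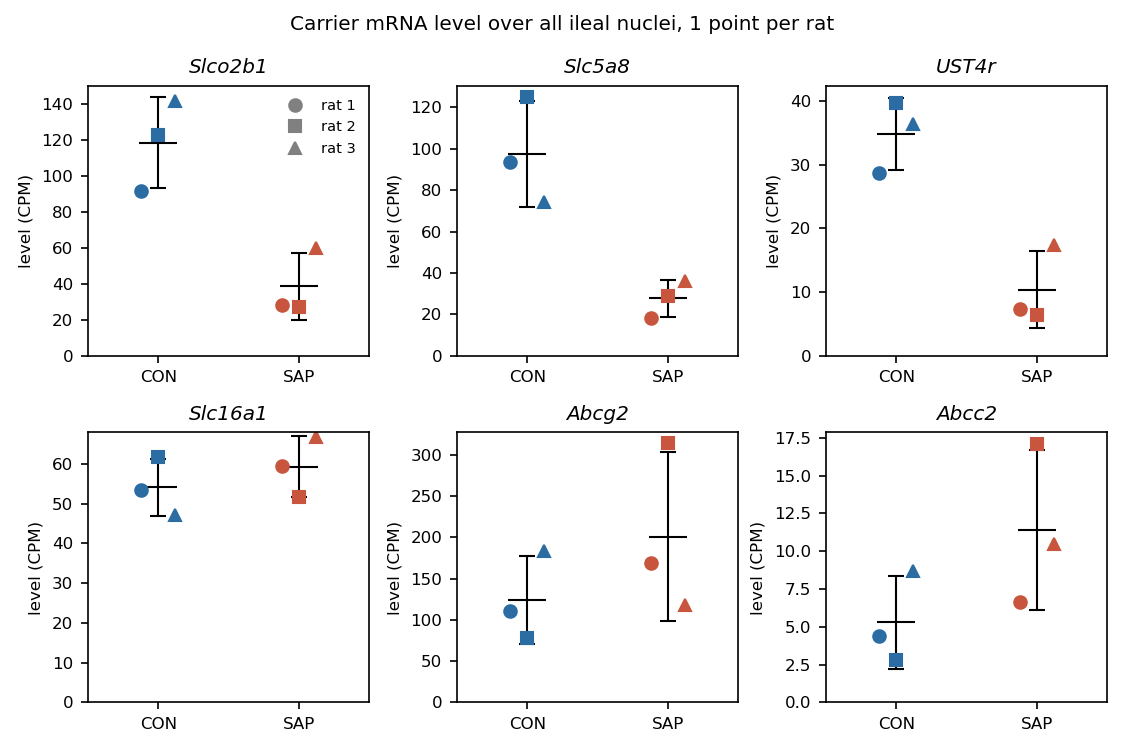
Level of each carrier over all nuclei of each rat, in CPM, with 1 point per rat and bars at the mean ± SD of each group (n = 3). The SAP points of Slco2b1, Slc5a8 and UST4r all lie below their CON points, as the choice of these genes required, whereas the points of Slc16a1, Abcg2 and Abcc2 overlap.

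Nuclei were clustered without the 6 carriers and named from marker lists, which gave 25 clusters, of which some stayed unnamed because no marker list led clearly. The epithelial classes used most below were enterocyte-like nuclei (3975), stem and transit-amplifying (stem/TA-like) nuclei (5696), goblet-like nuclei (4472) and the unnamed clusters 0 (6198 nuclei) and 2 (5548). Markers of the villus tip summed to 197 ± 111 CPM in stem/TA-like nuclei and 265 ± 148 in cluster 0 (mean ± SD, 6 rats). They summed to 409 ± 306 in cluster 2 and 2753 ± 1415 in enterocyte-like nuclei, and the classes are given in the order of these means. Enterocyte-like nuclei were highest in each rat. The other classes did not keep the order in each: in CON replicate 1 cluster 2 read 69.2 CPM, against 83.1 in stem/TA-like nuclei and 88.7 in cluster 0. Enterocyte-like nuclei held 9 detected enterocyte markers, summing to 2087 to 9937 CPM per rat. In the same nuclei the 7 Paneth markers summed to 31557 CPM in CON replicate 1 and 39522 in SAP replicate 1, against 8549 and 6873 for the enterocyte list. In CON replicate 2 the Paneth (2816 CPM) and the 8 goblet markers (3163 CPM) also exceeded the enterocyte sum of 2087 CPM. In the remaining libraries the enterocyte sum was above both. The cluster names were rebuilt here and may differ from those of the study.

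UST4r was highest at the crypt end of this order. In CON its level was 93.6 ± 17.8 CPM in stem/TA-like nuclei (SD, n = 3 rats), 29.3 ± 3.31 in cluster 0, 12.8 ± 4.41 in cluster 2 and 16.7 ± 11.6 in enterocyte-like nuclei. In SAP the same order of crypt over villus was seen at lower levels, with 41.3 ± 22.7, 7.08 ± 6.42, 6.90 ± 5.08 and 4.88 ± 2.33 CPM. Over all classes, the stem/TA-like mean was the highest and lay above the next, cluster 7, in 6 of 6 rats, whereas cluster 7 (22.8 ± 17.1 CPM, SD over 6 rats) and cluster 10 (22.1 ± 19.7) did not differ beyond their spread. Stem/TA-like values were 87.8, 79.4 and 113.6 CPM in CON and 30.4, 26.3 and 67.4 CPM in SAP.

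By the mean of 6 rats, Slc5a8 was highest in cluster 0, at 191.8, 206.1 and 161.6 CPM in CON and at 31.1, 34.3 and 74.8 CPM in SAP. Mesothelial-like nuclei came next by that mean, at 99.1 ± 161 CPM from 26 UMIs. Slc5a8 was also the leading gene of cluster 0 by fold, although it had no part in the clustering. Among the classes of this order, stem/TA-like nuclei followed in CON with 140.2 ± 24.0 CPM, then cluster 2 with 93.4 ± 37.9 and enterocyte-like nuclei with 58.8 ± 35.5. In SAP these classes read 46.8 ± 22.6, 25.6 ± 19.6 and 25.5 ± 8.30 CPM, with stem/TA-like nuclei about level with cluster 0. In CON, cluster 0 lay above stem/TA-like nuclei in each rat, whereas the 3 SAP rats did not keep an order. The mean in SAP was 25.1% of that in CON in cluster 0 and 33.4% in stem/TA-like nuclei.

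Over the 17 classes with at least 10 nuclei in each library, Slco2b1 differed least between classes among the 3 chosen carriers. Its highest CON mean there was 1.39 times the median, against 2.47 times for Slc5a8 and 3.23 times for UST4r. In CON it was at 164.2 ± 48.2 CPM in stem/TA-like nuclei, 160.8 ± 61.9 in cluster 0, 141.8 ± 17 in cluster 2 and 83.7 ± 26.3 in enterocyte-like nuclei, and the last lay below the other 3 in each CON rat. In enterocyte-like nuclei the CON rats read 76.8, 112.7 and 61.6 CPM and the SAP rats 8.70, 15.6 and 23.8 CPM, which is 19.2% of CON. The highest mean of all, 348 ± 144 CPM in CON and 213 ± 325 in SAP, came from cluster 21, an unnamed group of 136 nuclei in which the B cell and the fibroblast marker lists scored nearly alike (mean log2 ratios of 1.25 and 1.17). In cluster 21 the values rested on 0 to 91 UMIs per library. With 3 to 74 nuclei per library, that cluster is not among the 17 classes, so the 1.39 times leaves it out.

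Abcg2 ran the other way along the same order. In CON its level went from 33.5 ± 15 CPM in stem/TA-like nuclei and 57.1 ± 30.0 in cluster 0 to 289.2 ± 108.2 in cluster 2 and 546.8 ± 182.0 in enterocyte-like nuclei. In SAP the levels were 78.0 ± 77.9, 163.4 ± 134.4, 319.0 ± 50.1 and 389.6 ± 62.2 CPM. Enterocyte-like nuclei read 690.2, 342.1 and 608.1 CPM in CON and 319.3, 437.8 and 411.6 CPM in SAP, with overlapping groups and a log2 fold change of -0.44 (SE 0.38, edgeR adjusted p = 0.728). In stem/TA-like nuclei the CON rats read 23.0, 26.7 and 50.7 CPM and the SAP rats 41.9, 167.4 and 24.7 CPM, so the higher SAP mean there was that of replicate 2. In cluster 0 the CON rats read 39.1, 40.4 and 91.8 CPM and the SAP rats 122.9, 313.4 and 53.9 CPM, and leaving out SAP replicate 2 took the SAP mean from 286% to 155% of CON. The 9 enterocyte markers summed to 307 to 1154 CPM in CON and 1233 to 2093 CPM in SAP in cluster 0, and to 256 to 843 and 814 to 1426 CPM in stem/TA-like nuclei, and their part in the carriers' differences in these classes was not tested. The lower mean in enterocyte-like nuclei beside the higher mean elsewhere was tested as a difference of differences in an edgeR fit added after the levels were seen. The SAP effect on Abcg2 in enterocyte-like nuclei minus that in stem/TA-like nuclei was -1.26 (SE 0.68, adjusted p = 0.820), minus that in goblet-like nuclei -1.15 (SE 0.44, adjusted p = 0.732) and minus that in cluster 0 -1.68 (SE 0.66, adjusted p = 0.571), on the log2 scale. None of the 3 passed the threshold, nor did any of the 12435 to 12560 genes tested (0%). For Abcc2 the same differences ran from -1.62 to -1.19 with adjusted p-values of 0.770 to 0.876, and for Slc16a1 from -0.04 to 0.05.

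Slc16a1 showed less relief between classes than Abcg2, and Abcc2 was scarce. Over the 17 classes the highest CON mean was 6.82 times the median for Abcg2, 6.04 times for Abcc2 and 1.53 times for Slc16a1. The Abcc2 median was 3.20 CPM. Abcc2 was at 19.3 ± 4.73 CPM in CON and 22.3 ± 5.95 in SAP in the unnamed cluster 10, at 13.5 ± 8.15 and 19.8 ± 5.68 in cluster 2, and at 11.5 ± 8.76 and 11.1 ± 6.42 in enterocyte-like nuclei, whose libraries held 3 to 45 Abcc2 UMIs. Slc16a1 lay between 38.5 and 71.8 CPM in the 4 epithelial classes of CON and between 38.5 and 80.2 CPM in those of SAP. Its highest mean was in mesothelial-like nuclei, at 252 ± 131 CPM in CON and 116 ± 68.6 in SAP, from 1 to 37 UMIs per library. In enterocyte-like nuclei Slc16a1 read 29.3, 51.8 and 34.5 CPM in CON and 31.1, 33.2 and 51.2 CPM in SAP (log2 fold change 0.16, SE 0.30, adjusted p = 0.887).

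The class differences were compared within rats, where both groups contribute, by an exact sign-flip permutation test (two-sided, n = 6 rats, 18 contrasts). With 6 rats the smallest p the test can give is 0.0312, and the 7 contrasts that reached it had a Benjamini-Hochberg adjusted p of 0.0804, so that 0 of 18 passed 0.05. Enterocyte-like minus stem/TA-like nuclei gave the same sign in 6 of 6 rats for 5 carriers: -1.48 ± 0.76 for Slco2b1, -1.07 ± 0.79 for Slc5a8, -2.71 ± 0.82 for UST4r, -0.80 ± 0.41 for Slc16a1 and 3.39 ± 1.17 for Abcg2, on the log2(CPM + 1) scale. These values rest on the clustering: without integration across libraries they were -1.11 for Slco2b1, 2.33 for Slc5a8, -0.40 for UST4r, 0.90 for Slc16a1 and 4.12 for Abcg2. Abcg2 was also higher in enterocyte-like than in goblet-like nuclei in 6 of 6 rats, by 2.24 ± 0.92. An edgeR fit with the rat as a block, added later, placed UST4r at -2.22 (SE 0.25, adjusted p = 1.5e-05) and Abcg2 at 4.01 (SE 0.41, adjusted p = 1.2e-05) between enterocyte-like and stem/TA-like nuclei, where 65.9% of genes passed. Slco2b1 was at -0.81 and Slc5a8 at -0.63 in that fit, which differs from the CPM values in scaling, weighting and pseudocount. Slc16a1 was then at -0.24 (adjusted p = 0.192). Between enterocyte-like and goblet-like nuclei, where 49.2% of genes passed, Abcg2 was at 2.69 (SE 0.32, adjusted p = 6.3e-05) and Abcc2 at 1.45 (SE 0.43, adjusted p = 0.0148), while the other 4 carriers did not pass.

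**Figure D2:**
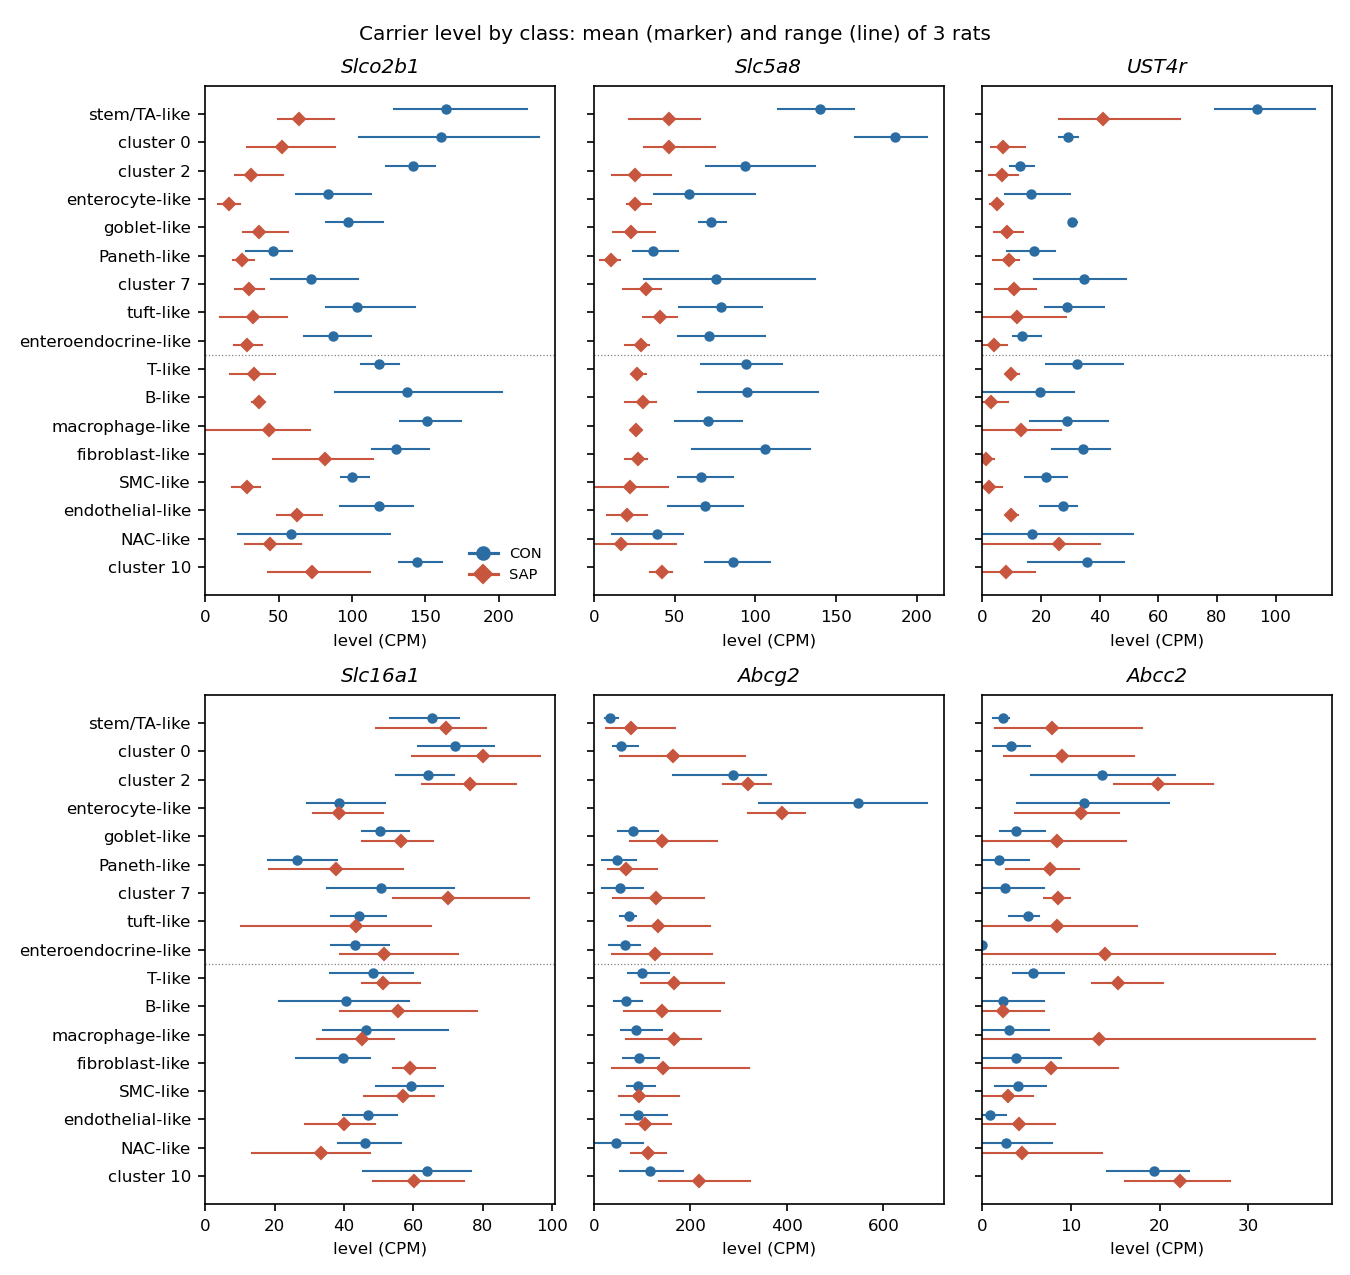
Level of each carrier (CPM) in every class with at least 10 nuclei in each library, with the mean as a marker and the range of 3 rats as a line, for CON and SAP. Slco2b1 and Slc5a8 are lower in SAP across epithelial and other classes, and Abcg2 is set apart by its level in enterocyte-like nuclei and cluster 2.

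The lower level of the chosen carriers was not limited to the epithelial classes. Over the 17 classes with at least 10 nuclei in each library, SAP rats lay below CON rats without overlap in 14 classes for Slco2b1, 15 for Slc5a8 and 9 for UST4r. Each class is a part of the sum by which these genes were chosen, so such counts follow in part from the choice and test nothing. The shares over all genes given below are not limited to genes chosen in this way. The classes with overlap were neuron-associated (NAC), Paneth-like and fibroblast-like nuclei for Slco2b1, and NAC nuclei and cluster 7 for Slc5a8. UST4r overlapped in 8: B-like, NAC, Paneth-like, macrophage-like and tuft-like nuclei and clusters 2, 7 and 10. In NAC nuclei its SAP mean was 154% of CON, from 25 UMIs. Its 9 classes include SMC, endothelial-like, fibroblast-like and enteroendocrine-like nuclei, with 48, 45, 38 and 14 UMIs over 6 rats. UST4r was too scarce there to be tested, so the shares below leave these pairs out. Over the genes tested in these classes, pooled, 6.64% of class and gene pairs had SAP below CON without overlap and 4.99% had SAP above, and the lower share ran from 0.755% to 10% within single classes. The SAP mean of Slco2b1 was 27.7% of CON in T-like nuclei and 28.5% in smooth muscle (SMC) nuclei, close to the 32.6% over all nuclei. Slc16a1 had no class with SAP below CON and 1 with SAP above, fibroblast-like nuclei, at 45.5, 26.2 and 47.3 CPM in CON and 57.0, 66.3 and 54.0 CPM in SAP. Abcc2 likewise had 1, T-like nuclei, from 2 to 31 UMIs per library, and Abcg2 none. Without both replicate 1 libraries the numbers of classes with SAP below CON were 16 for Slco2b1, 16 for Slc5a8, 12 for UST4r and 0 for the other 3, beside 19.8% of the class and gene pairs with 2 rats in each group. SAP lay above CON there in 5 classes for Slc16a1, 2 for Abcg2 and 7 for Abcc2. The share of all pairs above was not computed, so these counts cannot be set against other genes and show no rise of these carriers. The SAP means over all nuclei were then 33.1%, 32.6% and 31.2% of CON for the 3 chosen carriers. For Slc16a1, Abcg2 and Abcc2 they were 109%, 166% and 240%.

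RNA that leaves its nucleus during preparation can be captured with other nuclei, and the level outside the epithelium holds both such RNA and what those nuclei express themselves. Nuclei outside the epithelium, here those of non-epithelial classes wherever they sat in the tissue, carried Slco2b1 at 89.5% to 154% of the epithelial level of the same rat. Slc5a8 stood at 54.6% to 134% and UST4r at 53.0% to 132%. Slc16a1 stood at 75.5% to 107%, Abcg2 at 57.4% to 79.5% and Abcc2 at 67.3% to 166%. The medians over 6 rats were 131%, 86.1% and 79.4% for the 3 chosen carriers. Summed markers of epithelial classes stood at 41.8% to 74.5% for the enterocyte list (median 55.2%), 66.5% to 96.0% for goblet, 57.7% to 122% for stem, 32.9% to 78.1% for Paneth (median 48.1%), 60.3% to 169% for tuft and 44.8% to 92.4% for enteroendocrine markers. The part of such RNA in the lower level of the 3 carriers outside the epithelium was not tested.

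Shares of nuclei with at least 1 UMI were set beside those of T-like and SMC nuclei, which are not epithelial classes and may express some of these carriers themselves. Where these nuclei sat in the tissue is not known. After thinning each nucleus to 1200 UMIs, Slco2b1 was seen in 8.85% ± 1.76 of enterocyte-like nuclei in CON, against 10.4% ± 1.00 of T-like and 10.8% ± 1.94 of SMC nuclei, so its share in enterocyte-like nuclei was no higher than in these classes. Stem/TA-like nuclei reached 17.2% ± 4.66 and cluster 0 reached 17.5% ± 4.86 for the same gene. Slc5a8 was seen in 18.7% ± 2.28 of cluster 0 and 14.8% ± 2.31 of stem/TA-like nuclei, against 10.6% ± 2.63 of T-like and 6.74% ± 2.61 of enterocyte-like nuclei. UST4r was seen in 10.8% ± 1.39 of stem/TA-like nuclei, against 3.25% ± 0.82 of T-like nuclei. Abcg2 was seen in 43.4% ± 9.77 of enterocyte-like nuclei in CON and 33.1% ± 6.21 in SAP, against 8.72% ± 4.59 and 16.2% ± 8.58 of T-like nuclei. Slc16a1, which lymphocytes and muscle are known to express, was seen in 4.00% ± 1.28 of enterocyte-like and 5.46% ± 0.19 of T-like nuclei, and T-like nuclei give no background for it. Unthinned, the enterocyte-like shares in CON were 17.2% for Slco2b1, 11.6% for Slc5a8, 3.45% for UST4r, 8.18% for Slc16a1 and 58.1% for Abcg2, with a median of 1895 UMIs per nucleus, against 1940 in T-like and 1784 in SMC nuclei.

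The shares of nuclei by class also varied between the rats, and their differences between the groups were not tested here. In its single-nucleus data the study reported changes in stem, TA1, goblet, Paneth and enterocyte proportions as trends without statistical significance at the sample level. In its spatial data it reported significantly fewer Paneth cells with more goblet cells. The shifts of enterocytes and of the stem cells annotated there were not significant. Stem/TA-like nuclei made up 17.7% ± 4.11 of the nuclei in CON and 9.49% ± 3.45 in SAP, without overlap between the groups. Enterocyte-like nuclei made up 6.61% ± 1.5 and 14.7% ± 7.40, separated only by 8.02% in CON replicate 3 and 8.06% in SAP replicate 3. Paneth-like (5.44% and 2.66%) and goblet-like shares (12.7% and 8.74%) did not overlap either. The groups overlapped in cluster 0, closest to stem/TA-like nuclei (17.2% ± 4.13 and 13.1% ± 3.59). They also overlapped in cluster 2, closest to enterocyte-like nuclei (12.2% ± 1.52 and 17.4% ± 7.71). In cluster 7, closest to Paneth-like nuclei, they overlapped as well, and there the SAP mean was the higher (3.45% ± 2.26 and 4.76% ± 2.92). Sums over all nuclei cannot tell fewer nuclei of a class from less RNA per nucleus. In a further calculation, the share of all UMIs that each class held, rather than its share of nuclei, was set to the CON mean in every rat. Slco2b1 was then at 34.7% of CON in place of 32.6%, Slc5a8 at 32.4% in place of 28.5% and UST4r at 36.6% in place of 29.7%. All SAP rats stayed below all CON rats for these 3 genes, which their choice over the same nuclei makes likely. For Abcg2 the ratio of SAP to CON was 1.34 with shares held and 1.62 as observed, for Abcc2 1.96 and 2.16, and for Slc16a1 1.11 and 1.10.

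**Figure D3:**
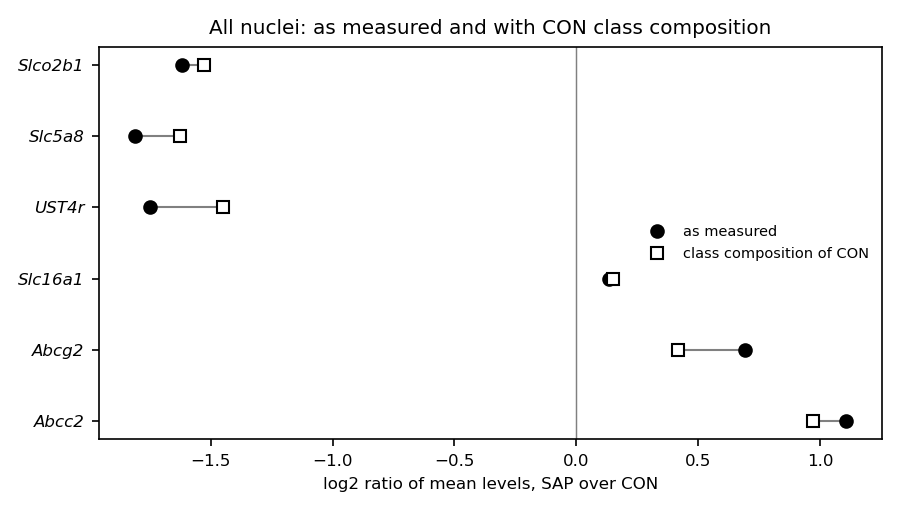
Log2 ratio of the SAP mean to the CON mean over all nuclei for each carrier, as observed and with the classes' shares of all UMIs held at the CON mean. The 2 values differ by at most 0.30 on this scale, for UST4r.

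The other genes of these pathways were taken from lists. Members of 3 of these lists are called listed carriers here, although they include chaperones and Abcc9, a potassium channel subunit rather than a pump. The fits called none of them: 0 of 52 tested over all nuclei, 0 of 48 in epithelial and 0 of 32 in enterocyte-like nuclei. Of all genes tested, 0%, 0% and 0.00927% were called. At an unadjusted p under 0.05 these were 6, 6 and 3 carriers, beside 1618 of 19187, 1921 of 16822 and 1032 of 10792 genes tested. DESeq2 called 1 carrier over all nuclei, Slc16a3 (MCT4, a lactate exporter), at a log2 fold change of 1.90, beside 1.18% of all genes. In the 16 classes other than enterocyte-like, DESeq2 called 6 pairs of a listed carrier and a class, beside 0.362% of all genes tested there, edgeR without a filter on low counts called 7, beside 0.398%, and edgeR with the filter called 0, beside 0.0225%. These shares pool all 16 classes. The 6 DESeq2 pairs lay in SMC nuclei, cluster 0 and stem/TA-like nuclei, where DESeq2 called 2.53%, 1.97% and 0.656% of all genes. In the classes of the 7 pairs, edgeR without the filter called from 0.45% (stem/TA-like) to 1.78% (SMC) of all genes. In edgeR over all nuclei Slc16a3 had the same fold change with an adjusted p of 0.545, from 4.01 ± 2.89 CPM in CON and 14.4 ± 5.31 in SAP. The 3 chosen carriers are left out of these counts. The organic anion list holds the OATP and OAT families, the bile acid carrier Slc10a2 and the bile acid exporter subunits Slc51a and Slc51b. Over all nuclei, 15 of 17 tested genes of this list had a positive log2 fold change, with a median of 0.47, beside a median of 0.02 over all genes. Of 15 genes on the ABC list, Abcc9 among them, 12 were positive with a median of 0.51. Of 20 monocarboxylate carriers and chaperones, 10 were positive and 10 negative. Of the 12 genes of the ABC list tested in enterocyte-like nuclei, 10 had a negative log2 fold change, with a median of -0.25 beside 0.01 over all genes there. None of the 12 had an unadjusted p under 0.05, and the difference from all nuclei was not tested. Of the 8 genes of the organic anion list tested in enterocyte-like nuclei, 4 were positive and 4 negative, with a median of -0.14. On the monocarboxylate list 4 were positive and 8 negative there, with a median of -0.11.

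**Figure D4:**
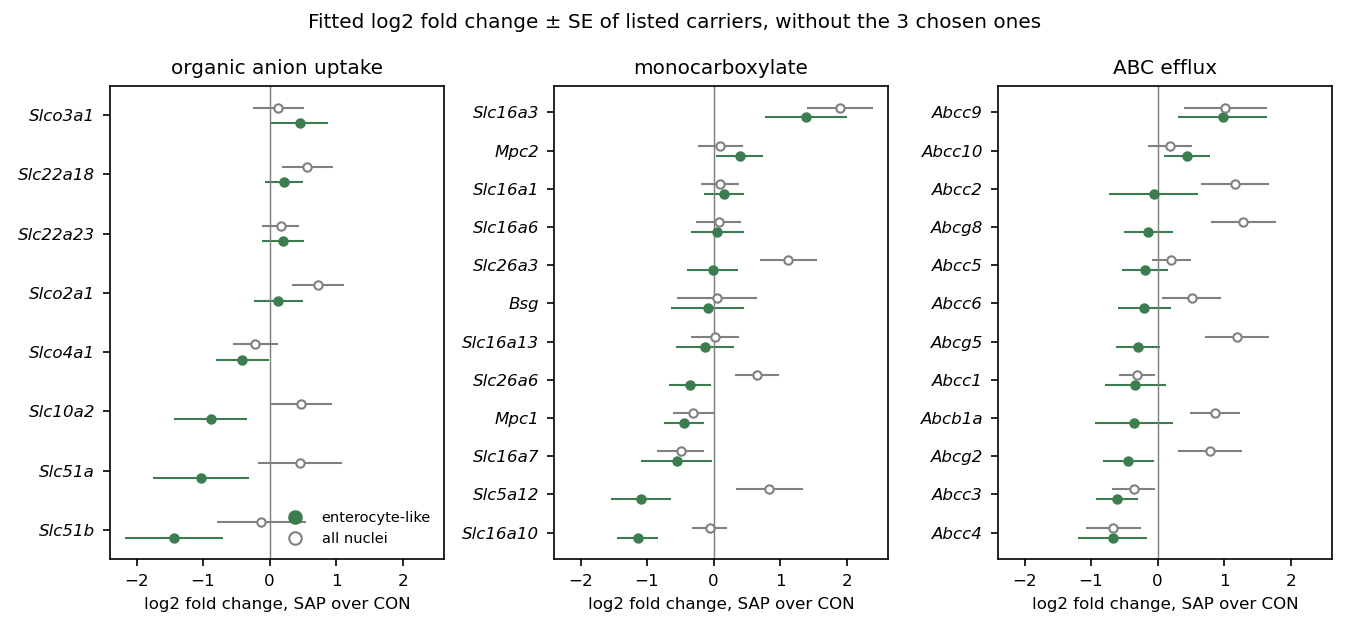
Fitted log2 fold change (SAP over CON) with its SE for the listed carriers tested in enterocyte-like nuclei (filled) and the same genes over all nuclei (open), by list, without the 3 chosen carriers. The points of the ABC list lie mostly left of 0 in enterocyte-like nuclei and mostly right of 0 over all nuclei, a difference that was not tested. None of the 32 listed carriers was called.

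Genes of the lists whose CON and SAP rats did not overlap in enterocyte-like nuclei are given as values, since none passed the test; of all genes tested there, 8.89% had SAP lower without overlap and 4.04% had SAP higher. Slc16a10, a carrier of aromatic amino acids and thyroid hormone, was at 293 ± 72.7 CPM in the CON rats against 125 ± 30.5 in the SAP rats (log2 fold change -1.14, edgeR adjusted p = 0.504). Mpc1, a subunit of the mitochondrial pyruvate carrier, was at 45.8 ± 7.5 and 30.7 ± 5.53 CPM. Ldha, which interconverts pyruvate and lactate, was at 163 ± 156 CPM in the CON rats against 517 ± 76.6 in the SAP rats (log2 fold change 1.75, adjusted p = 0.506). Of 9 tested genes of short-chain fatty acid and ketone use, Ldha included, 4 had a negative and 5 a positive log2 fold change, with a median of 0.03, and 4 were lower and 2 higher in SAP without overlap. Those named from them by size of change were Acss1, a mitochondrial acetyl-CoA synthetase, at 126 ± 38.0 and 54.9 ± 15.3 CPM, Acss2, its cytosolic and nuclear relative, at 82.9 ± 31.5 and 48.1 ± 7.13 CPM, and Bdh1, the 3-hydroxybutyrate dehydrogenase, at 58.4 ± 31.8 and 24.9 ± 4.93 CPM. Among transcription factors, Esrrg, an orphan receptor of oxidative metabolism, was at 76.7 ± 37.4 and 15.5 ± 7.29 CPM (log2 fold change -2.08, adjusted p = 0.355), Hif1a at 95.6 ± 26.2 and 167 ± 44.8 CPM, and Thrb at 425 ± 227 and 216 ± 35.7 CPM. No member of the organic anion and ABC lists was without overlap there, apart from the chosen carriers.

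UST4r sits among relatives whose reads the counting could split, and its values carry that uncertainty. In RefSeq's gene order its neighbours are Slc22a24, LOC134483964, Ust5r, Slc22a25 and Slc22a8; LOC134483964, the nearest on its side, was not analysed here, and the other 4 had 76, 49, 732 and 430 UMIs over all nuclei, against 2470 for UST4r. Slc22a25 was at 3.09, 2.54 and 9.07 CPM in CON and at 6.31, 10.1 and 12.5 CPM in SAP, and Slc22a8 at 2.09, 1.93 and 4.81 CPM and at 9.55, 7.17 and 4.58 CPM. Neither of these neighbours was lower in every SAP rat.

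Genes with the most similar pattern across classes were found by Pearson correlation of mean log2(CPM + 1) over 22 classes and clusters, which share the same 6 libraries. Slc5a8 was most like Bri3bp (r = 0.934), LOC120101643 (r = 0.918) and B3gnt5 (r = 0.892). UST4r was most like Rad54l (r = 0.874), Plk5 (r = 0.846) and Cbr1l2 (r = 0.843). Abcg2 was most like Cideb (r = 0.960), LOC100362109 (r = 0.946) and Smpd2 (r = 0.921). The most similar genes were Fam117b for Slco2b1 (r = 0.871), Tsen34 for Slc16a1 (r = 0.860) and Btnl4 for Abcc2 (r = 0.796). Among the carriers, Slc5a8 and UST4r were the closest pair (r = 0.631), followed by Abcg2 and Abcc2 (r = 0.588).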

How the data were processed

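Single-nucleus RNA was measured in the ileum of 3 CON and 3 SAP rats, grouped by the treatment in the labels. The authors deposited a sparse matrix of UMI counts per gene and barcode for each library, made per the study's methods with the DNBelab pipeline; the submitters' processing notes also name the build mRatBN7.2 and Seurat 4.3.0, without their roles. The deposited counts were not normalized. Spatial data of the study were not analysed here.

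The 6 carriers, the gene lists and the tests were chosen with earlier results of these data known. The thresholds of the study were applied to each nucleus: 1200 or more UMIs, 500 or more genes and a mitochondrial share of 5% or less. Clustering (scanpy 1.11.5, leidenalg 0.10.2, Python 3.11.15) used 2000 variable genes. Left out were 125 genes, namely the carriers, the listed genes and villus position genes that are not cell type markers. Histocompatibility, defensin, Reg3 and mitochondrial genes were left out as well. It used 30 components integrated across libraries in the manner of Harmony, a graph of 20 shared neighbours and resolution 0.8. The kind of graph was settled after first clusterings had been seen. A cluster was named X-like when the mean log2 ratio of its markers reached 0.5, led the next list by 0.8 and rested on at least 3 markers, and stem and transit-amplifying clusters were joined. Scrublet's automatic threshold marked 0% of nuclei as doublets and so had not worked; removal of the top 5% was tried as an alternative.

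Counts were summed per rat and class and fitted over all genes with edgeR 4.0.16 in R 4.3.3 (filterByExpr, TMM, robust quasi-likelihood test, Benjamini-Hochberg adjustment over all genes tested); SE is the absolute log2 fold change over the root of F. A call needed an adjusted p below 0.05 together with a log2 fold change of 0.5 or more in size. Scripts were tested on simulated counts. Nothing states how animals map to replicate numbers, but deviations of same-numbered CON and SAP libraries from their group means correlated over all nuclei (r = 0.577, 0.183 and 0.524), so the numbers may pair the libraries, and fits with the number as a block were run. Named genes of the lists were those called, and up to 4 per list in enterocyte-like nuclei without overlap between the groups, by absolute log2 fold change. Of 68 carrier symbols listed, 64 were matched in the tables as spelled; UST5r was missed because the tables spell it Ust5r. Alternatives were DESeq2 1.42.0, its size factors, no filter on low counts, each library left out, a mitochondrial limit of 1%, resolution 0.4, no integration, unnamed clusters joined to their closest class, doublets removed and a pseudocount of 10 CPM in place of 1. A further alternative was a covariate for the libraries deposited with barcodes below 1000 UMIs. Sequences came from RefSeq's tables for GRCr8, in which all 6 carriers were found.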

Additional observations from a re-analysis of the deposited data

How the results depend on the processing

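The calls rest on 3 rats per group, on at most 824 UST4r and 265 Abcc2 UMIs per library, and on rebuilt classes. Under alternative settings, 348 values of the carriers counted as the same, 7 moved beyond the replicate spread and 23 changed sign. Of the counts of calls, 55 stayed within 1.5 times and 4 moved. A fold change or difference counted as the same when it kept its direction and its side of the test threshold or, where untested, lay within the replicate spread. No tested value passed the threshold in the main settings, so a tested value could move far and still count as the same. UST4r between enterocyte-like and stem/TA-like nuclei, which went from -2.71 to -0.40 without integration, is among the 348. The 348 and 7 also hold thinned shares of enterocyte-like nuclei with a UMI, which have no direction and were compared with their SD. The log2 fold changes of Slco2b1, Slc5a8 and UST4r have a direction fixed by how these genes were chosen, and ranged from -1.89 to -1.49, from -2.15 to -1.63 and from -2.16 to -1.45 over all nuclei.

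DESeq2 called 1 listed carrier over all nuclei in place of 0, beside 1.18% of all genes. In the other classes it called 6, beside 0.362% of all genes pooled over these classes. The 6 were Abcc9, a potassium channel subunit and not a pump, in SMC nuclei, Abcb1a, Abcg5, Slc22a8 and Slc26a3 in cluster 0, and Abcb1a in stem/TA-like nuclei. Of all genes, DESeq2 called 2.53% in SMC nuclei, 1.97% in cluster 0 and 0.656% in stem/TA-like nuclei. Without a filter on low counts, edgeR called 7 in the other classes, beside 0.398% of all genes. These were Abcb1b and Abcc9 in SMC, Slc26a3 in enteroendocrine-like, Abcb1a in stem/TA-like, and Abcb1a, Slc26a3 and Slc51a in tuft-like nuclei. The edgeR fit with the rat as a block passed 6 of the 11 class contrasts it tested, in place of 0 of 18. In the same fits 65.9% of all genes passed between enterocyte-like and stem/TA-like nuclei. Between enterocyte-like and goblet-like nuclei 49.2% passed, so the count does not set the carriers apart from other genes. Slc5a8 in enterocyte-like nuclei moved from -0.99 to -1.61 with unnamed clusters joined to their closest class.

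The log2 fold changes of Slc16a1 and Abcc2 that changed sign lay near 0. Leaving out a library took Slc16a1 from -0.11 to 0.30 over all nuclei, from -0.063 to 0.36 in epithelial nuclei and from -0.063 to 0.27 in enterocyte-like nuclei, and Abcc2 in enterocyte-like nuclei from -0.47 to 0.86. Abcc2 in enterocyte-like nuclei was at 0.22 with the replicate block, 0.12 at the mitochondrial limit of 1%, 0.23 at resolution 0.4, 0.16 without integration and 0.26 with unnamed clusters joined, and Slc16a1 there at -0.29 without integration. The replicate block changed no call of a listed carrier (0 over all, 0 in epithelial and 0 in enterocyte-like nuclei).

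Among differences between classes, epithelial minus other nuclei at the limit of 1% was -0.069 for Slc5a8, -0.0018 for Slc16a1 and 0.30 for Abcc2, and without integration -0.21 for UST4r and 0.31 for Abcc2. Enterocyte-like minus goblet-like was 0.10 for Slc5a8 and 0.063 for Slc16a1 at resolution 0.4, 0.10 for Slc5a8 without integration, and 0.089 and 0.077 with unnamed clusters joined. Enterocyte-like minus stem/TA-like became 2.33 for Slc5a8 and 0.90 for Slc16a1 without integration, where these classes were rebuilt, and UST4r went from -2.71 to -0.40 (exact permutation test, adjusted p = 0.761) and Abcc2 from 1.22 to 2.93. With unnamed clusters joined, Slco2b1 went from -1.48 to -0.82 there and UST4r to -1.94. The causes were not tested.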

Other observations

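A neighbouring carrier was picked out after its values were seen. Abcb1a, the P-glycoprotein pump of the apical membrane, was higher in every SAP rat than in every CON rat in cluster 0, at 32.5 ± 23.2 CPM in CON and 143.8 ± 40.4 in SAP (SD, n = 3 rats), and in stem/TA-like nuclei, at 20.9 ± 8.64 and 81.7 ± 37.2 CPM. The edgeR log2 fold changes were 2.26 (adjusted p = 0.311) and 1.99 (adjusted p = 0.284), and DESeq2 called both. Of all genes tested, 6.56% were higher in SAP without overlap in cluster 0 and 5.78% in stem/TA-like nuclei. DESeq2 called 1.97% and 0.656% of genes in these classes. In enterocyte-like nuclei Abcb1a was at 274.8 ± 163.7 CPM in CON and 218.7 ± 156.5 in SAP, with overlapping groups. Slc26a3, the chloride and bicarbonate exchanger of the brush border, was at 183.9 ± 84.0 and 594.2 ± 322.4 CPM in cluster 0, also without overlap (edgeR adjusted p = 0.311), and at 399.1 ± 107.0 and 374.5 ± 155.7 CPM in enterocyte-like nuclei. The summed 9 enterocyte markers were also higher in SAP there, at 307 to 1154 CPM in CON and 1233 to 2093 CPM in SAP in cluster 0, and at 256 to 843 and 814 to 1426 CPM in stem/TA-like nuclei, where 1 CON rat overlapped, and their part in these values was not tested. Whether these effects differ between classes was not tested.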
